A study of Homo sapiens with 12 samples.

Results

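The 34 genes of cholesterol and fatty acid synthesis described here were 34 of the 19128 gene symbols in a table of HT-29 libraries, taken as a list of named genes with 1 line of the table for each symbol. They comprised 18 enzymes of sterol synthesis, 5 genes of sterol sensing and feedback, 3 genes of sterol transport and 8 genes of fatty acid synthesis and desaturation. HT-29 is a human colorectal adenocarcinoma line, grown in RPMI. TBZ was a mix of TNFα at 20 ng/mL, the Smac mimetic BV6 at 2 µM and the caspase inhibitor zVAD-fmk at 30 µM, a combination that is known to trigger necroptosis, and DMSO was the vehicle. The main experiment had 8 libraries in 4 groups of 2: shMLKL cells given TBZ for 5 h, shMLKL cells given DMSO, shGFP cells given TBZ for 5 h and shGFP cells given DMSO. The shMLKL cells carried a lentiviral short hairpin against MLKL, the membrane-disrupting effector of necroptosis, and the shGFP cells served as the control line. An earlier experiment had 4 single libraries: parental cells given TBZ for 4 h, parental cells given DMSO, shMLKL cells given TBZ for 12 h and shMLKL cells given DMSO. The labels give no time for DMSO and do not say whether both libraries of a group were grown apart, and p-values below measure only the spread between these libraries, which may be technical. With 1 knockdown line and 1 control line, the loss of MLKL and any other difference between the lines cannot be told apart.

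Cholesterol is built from acetyl-CoA through mevalonate, squalene and lanosterol, and fatty acids are built from the same acetyl-CoA by carboxylation and chain extension. Genes of both routes are targets of the SREBP transcription factors, membrane proteins of the endoplasmic reticulum that the escort SCAP carries to the Golgi for cleavage when sterols are low. INSIG1 and INSIG2 hold SCAP in the endoplasmic reticulum when sterols are plentiful, and INSIG1 is itself an SREBP target, which closes a feedback loop. SREBF2 encodes SREBP2, which acts mainly on sterol genes, and SREBF1 encodes SREBP1, whose forms act mainly on fatty acid genes.

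SREBPs bind sterol regulatory elements close to start sites, usually beside a CCAAT box bound by NF-Y. RefSeq promoters on GRCh38.p14, running from 250 bases before to 50 bases after an annotated start, were found for 30 of the 34 genes and gave 42 promoters. None were found for ACAT2, FDFT1, SQLE and FASN, so the motif counts leave these genes out. TCACNCCAC, a core of the element searched on both strands, was in 1.13% of all 35116 promoters of the table and in 1 of the 42, that of SREBF2. The stricter TCACCCCAC, which is one form of it, was in 0.43% of all promoters and in the same SREBF2 promoter. CCAAT, also searched on both strands, was in 34.6% of all promoters and in 26 of the 42 (61.9%), among them 15 of the 20 sterol synthesis promoters (75.0%) and 7 of the 12 fatty acid promoters (58.3%). Promoters of the same gene can overlap and share a box, as for SC5D and ACLY. Counted by gene, CCAAT was in a promoter of 10846 of all 27305 genes and of 22 of the 30. These 22 included 13 of 15 sterol synthesis genes and 5 of 7 fatty acid genes. The 4 promoters below are shown because SREBF2 held the core element and because INSIG1, HMGCS1 and MSMO1 had the largest TBZ differences in shGFP cells. Each reads 5′ to 3′ on the strand of its gene, and capitals mark the motifs, a CCAAT box on the opposite strand reading ATTGG. No CCAAT box overlapped the core element.
SREBF2 promoter, chr22:41832855-41833154, plus strand: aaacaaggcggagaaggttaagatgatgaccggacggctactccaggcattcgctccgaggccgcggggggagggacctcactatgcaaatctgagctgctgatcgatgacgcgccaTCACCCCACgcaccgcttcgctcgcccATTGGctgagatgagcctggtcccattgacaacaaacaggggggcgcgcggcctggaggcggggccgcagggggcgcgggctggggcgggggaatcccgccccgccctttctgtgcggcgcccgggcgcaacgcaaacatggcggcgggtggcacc
INSIG1 promoter, chr7:155297628-155297927, plus strand: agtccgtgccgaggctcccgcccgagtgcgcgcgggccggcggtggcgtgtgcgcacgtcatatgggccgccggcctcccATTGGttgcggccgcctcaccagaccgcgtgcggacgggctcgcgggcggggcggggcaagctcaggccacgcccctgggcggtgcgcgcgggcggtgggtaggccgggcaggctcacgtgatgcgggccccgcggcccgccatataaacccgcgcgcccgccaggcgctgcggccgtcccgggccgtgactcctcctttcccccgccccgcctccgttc
HMGCS1 promoter, chr5:43313363-43313662, minus strand: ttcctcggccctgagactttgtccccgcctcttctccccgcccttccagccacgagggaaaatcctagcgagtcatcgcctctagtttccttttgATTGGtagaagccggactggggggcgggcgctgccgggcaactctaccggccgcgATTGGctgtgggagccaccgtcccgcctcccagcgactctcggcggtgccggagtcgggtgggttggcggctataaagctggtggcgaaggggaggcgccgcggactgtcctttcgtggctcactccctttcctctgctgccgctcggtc
MSMO1 promoter, chr4:165327419-165327718, plus strand: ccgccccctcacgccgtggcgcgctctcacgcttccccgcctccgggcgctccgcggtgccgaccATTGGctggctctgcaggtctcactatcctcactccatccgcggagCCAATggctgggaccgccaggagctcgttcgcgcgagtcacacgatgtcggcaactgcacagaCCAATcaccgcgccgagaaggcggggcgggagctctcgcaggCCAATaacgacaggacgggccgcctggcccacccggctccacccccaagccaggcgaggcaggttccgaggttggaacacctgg
The first base of the SREBF2 core element lay at position -133 from the start site and that of its CCAAT box at -106. The MSMO1 promoter held 4 CCAAT boxes, the HMGCS1 promoter shown held 2 and the INSIG1 promoter held 1. A match is a run of letters and not a site of binding, and its absence from these windows says only that those letters are not there.

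Levels are FPKM, fragments per kilobase of transcript scaled to sequencing depth, as deposited by the authors. No counts were given, so absolute depth is unknown. Gene positions from here on are those of the deposited files, on hg19. The step between low values put the 8 libraries at 82.9% to 100% of the deepest, and the correlation of log2(FPKM + 1) between libraries was 0.989 to 0.992 within groups and 0.928 to 0.967 between groups, across genes. MLKL (chr16:74705753-74734789, minus strand, hg19) had 0.651 and 0.395 FPKM in shMLKL TBZ libraries and 0.606 and 0.545 FPKM in shMLKL DMSO libraries, against 1.98 and 2.03 FPKM in shGFP TBZ libraries and 3.95 and 3.89 FPKM in shGFP DMSO libraries. Every shMLKL library thus lay below every shGFP library. The summed level of 10 colon epithelial markers was 768 to 771 FPKM in shMLKL TBZ, 869 to 2117 FPKM in shMLKL DMSO, 718 FPKM in shGFP TBZ and 663 to 668 FPKM in shGFP DMSO libraries. EPCAM, CDH1, KRT20, LGALS4 and VIL1 were present, CDX1 and CDX2 were near 0, and KRT8 and KRT18 were listed at 0 in 7 of the 8 libraries. In shMLKL DMSO library 2 KRT8 had 694 FPKM and KRT18 had 535 FPKM, and the sum of 2117 FPKM in that library holds both. An exact 0 in these values can thus be a failed estimate, and the marker sums do not compare the groups. Markers of fibroblasts and endothelium summed to at most 0.456 FPKM, and the 7 leukocyte markers summed to 521 to 640 FPKM in TBZ libraries and 601 to 658 FPKM in DMSO libraries, nearly all of it LYZ. Differences below are log2 differences of FPKM + 1, which understate changes of low genes. "Rose", "fell", "higher" and "lower" are used of genes with an adjusted p under 0.05 by limma over the 10364 genes that averaged 1 FPKM or more in some group. FADS1 and FADS2, the desaturases of polyunsaturated fatty acids, did not reach that level: FADS1 was at most 0.689 FPKM and FADS2 at most 0.187 FPKM in any library. The other 32 genes were tested.

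With TBZ the feedback gene INSIG1 and 8 of the sterol enzymes rose in both lines, while of the fatty acid genes ACSS2 alone rose, in shMLKL cells. In shMLKL cells 13 of the 32 genes rose and 7 fell, against 20.0% of all tested genes higher and 17.6% lower. In shGFP cells 14 rose and 6 fell, against 19.1% of all tested genes higher and 37.3% lower. Of the 18 sterol enzymes 9 rose and 2 fell in shMLKL cells, and 11 rose and 1 fell in shGFP cells. Of the 6 tested fatty acid genes 1 rose and 3 fell in shMLKL cells, and 0 rose and 2 fell in shGFP cells, where 0 were also higher at an unadjusted p under 0.05 by limma. The comparisons in the lines use separate libraries but a shared estimate of each gene's spread, so their calls are not independent. Of the 32 genes 11 rose in both lines, 5 fell in both and 8 passed in neither. The matching shares of all tested genes over both lines were not counted, so these numbers have no background beside them. The median log2 difference of the sterol enzymes was 0.23 in shMLKL cells and 0.36 in shGFP cells, and that of the fatty acid genes was -0.11 in shMLKL cells and -0.0036 in shGFP cells. That of all tested genes was -0.0044 in shMLKL cells and -0.12 in shGFP cells in these differences of log2 values, and the members' values are read against it. With library medians set equal, 12 of the 32 genes were higher and 7 lower in shMLKL cells, and 17 were higher and 4 lower in shGFP cells. Shares of all tested genes were not taken under this scaling, so the shares above are not the background of these counts. Without shMLKL DMSO library 1, or without shMLKL TBZ library 1, 4 genes were lower in shMLKL cells in place of 7. These are bulk libraries, so fewer cells of a kind and less RNA per cell cannot be told apart.

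**Figure D1:**
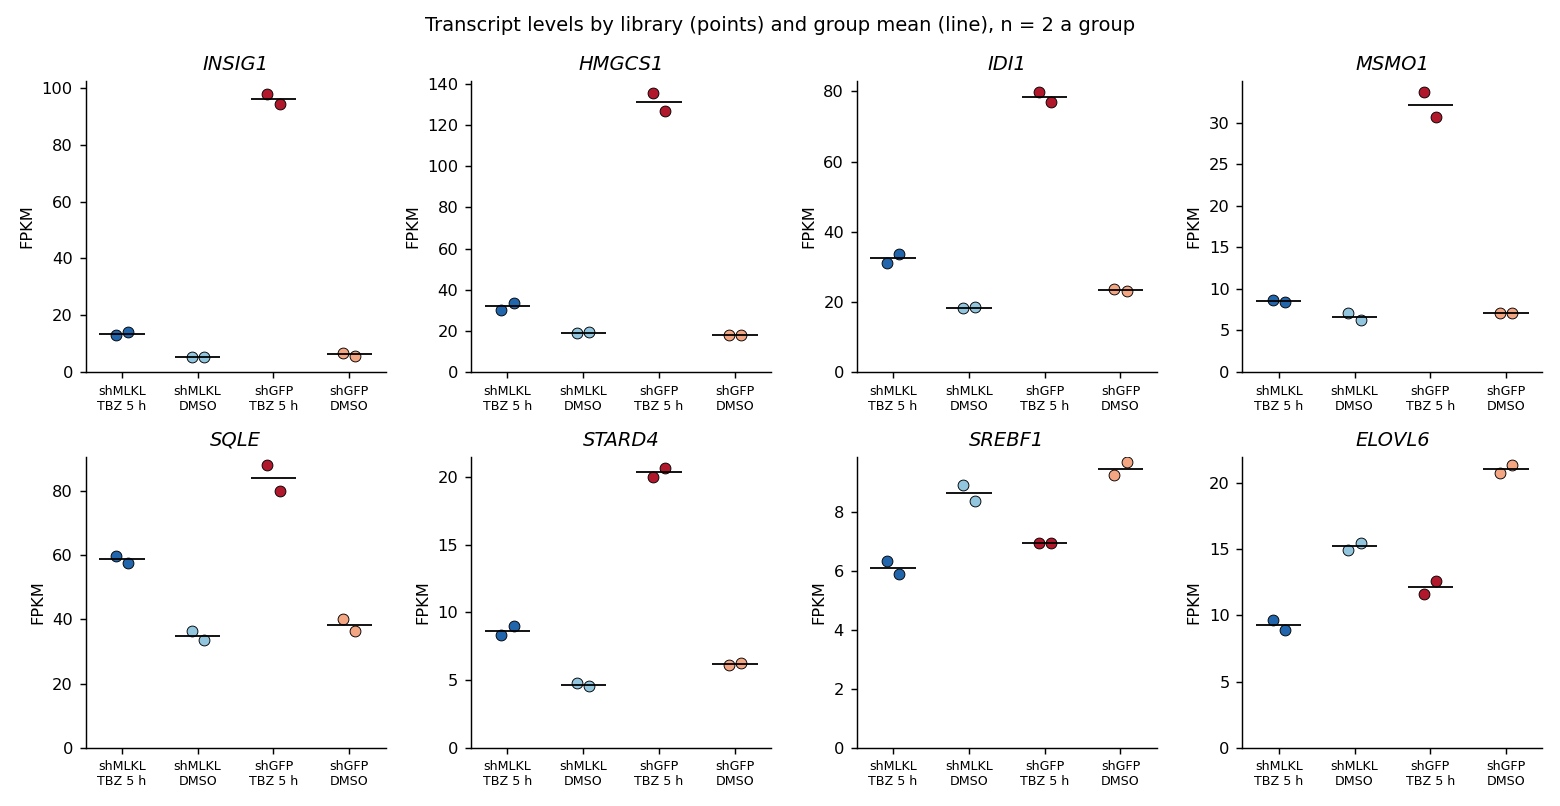
FPKM (linear axis) of 8 of the lipid synthesis genes in each library of the main experiment (points, with a line at the group mean), in the groups shMLKL TBZ, shMLKL DMSO, shGFP TBZ and shGFP DMSO from left to right. INSIG1 sat at 94.4 and 97.8 FPKM in the shGFP TBZ libraries and at or under 13.9 FPKM in the other 6, while SREBF1 and ELOVL6 sat lower with TBZ than with DMSO in each line.

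INSIG1 (chr7:155089486-155101945, plus strand, hg19), the feedback gene that retains SCAP, had the largest TBZ difference of the 32 tested genes in both lines. In shMLKL cells it had 12.97 and 13.9 FPKM with TBZ and 5.32 and 5.32 FPKM with DMSO, a 2.53-fold ratio of means and a log2 difference of 1.19 (SE 0.07, adjusted p = 1.03e-05). In shGFP cells it had 97.8 and 94.4 FPKM with TBZ and 6.61 and 5.75 FPKM with DMSO, a 15.5-fold ratio and a log2 difference of 3.76 (SE 0.07, adjusted p = 1.83e-08). TBZ and DMSO libraries did not overlap in either line. INSIG2 (chr2:118846050-118867597, plus strand), its paralogue with the same hold on SCAP, went the other way. It had 10.9 and 10.1 FPKM with TBZ and 18.4 and 18.2 FPKM with DMSO in shMLKL cells, a log2 difference of -0.75 (SE 0.09, adjusted p = 0.000415). In shGFP cells INSIG2 had 7.50 and 9.07 FPKM with TBZ and 12.1 and 13.1 FPKM with DMSO, a log2 difference of -0.56 (SE 0.09, adjusted p = 0.00107). On the FPKM scale, INSIG1 was the more abundant of the pair in every TBZ library of the main experiment and INSIG2 in every DMSO library of it.

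Of the messages of the transcription factors, SREBF2 passed in neither line and SREBF1 fell in both. SREBF2 (chr22:42229083-42303312, plus strand, hg19) had 16.9 and 16.7 FPKM with TBZ and 16.6 and 16.1 FPKM with DMSO in shMLKL cells, with a 95% interval of -0.06 to 0.14 for the log2 difference (adjusted p = 0.497). In shGFP cells SREBF2 had 22.0 and 21.2 FPKM with TBZ and 20.8 and 21.4 FPKM with DMSO, overlapping values with an interval of -0.06 to 0.13 (adjusted p = 0.516). SREBF1 (chr17:17714663-17740325, minus strand) had 6.34 and 5.90 FPKM with TBZ and 8.95 and 8.40 FPKM with DMSO in shMLKL cells, a log2 difference of -0.44 (SE 0.06, adjusted p = 0.00087). In shGFP cells SREBF1 had 6.96 and 6.95 FPKM with TBZ and 9.27 and 9.71 FPKM with DMSO, a log2 difference of -0.40 (SE 0.06, adjusted p = 0.000887). The SREBF1 groups did not overlap in either line. SCAP, the escort, had 3.74 and 3.64 FPKM in shMLKL TBZ, 4.37 and 3.71 in shMLKL DMSO, 4.54 and 3.94 in shGFP TBZ and 4.33 and 5.10 in shGFP DMSO libraries, and passed in neither line (95% intervals -0.34 to 0.13 in shMLKL and -0.36 to 0.11 in shGFP cells, adjusted p = 0.464 and 0.318).

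From mevalonate to squalene, the TBZ differences were largest at the HMG-CoA synthase and the isomerase. HMGCS1 (chr5:43287572-43313614, minus strand, hg19), the cytosolic HMG-CoA synthase, had 30.2 and 33.6 FPKM with TBZ and 19.1 and 19.2 FPKM with DMSO in shMLKL cells, a 1.66-fold ratio and a log2 difference of 0.70 (SE 0.06, adjusted p = 6.57e-05). In shGFP cells HMGCS1 had 136 and 127 FPKM with TBZ and 17.8 and 17.9 FPKM with DMSO, a 7.34-fold ratio and a log2 difference of 2.81 (SE 0.06, adjusted p = 3.27e-08). The lines had close HMGCS1 levels with DMSO and levels far apart with TBZ. IDI1 (chr10:1085964-1095061, minus strand), the isopentenyl diphosphate isomerase, had 31.1 and 33.7 FPKM with TBZ and 18.1 and 18.4 FPKM with DMSO in shMLKL cells, a 1.77-fold ratio (log2 difference 0.79, SE 0.05, adjusted p = 1.33e-05). In shGFP cells IDI1 had 79.9 and 77.1 FPKM with TBZ and 23.7 and 23.2 FPKM with DMSO, a 3.34-fold ratio (log2 difference 1.70, SE 0.05, adjusted p = 1.2e-07). Neither gene's TBZ libraries overlapped its DMSO libraries.

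The other enzymes before squalene differed by less. ACAT2, the acetoacetyl-CoA thiolase of the cytosol, had 15.2 and 16.5 FPKM in shMLKL TBZ, 12.97 and 12.7 in shMLKL DMSO, 25.1 and 26.4 in shGFP TBZ and 21.6 and 22.1 in shGFP DMSO libraries. It rose by 0.28 in shMLKL cells (adjusted p = 0.00374) and by 0.23 in shGFP cells (adjusted p = 0.00646). MVK, mevalonate kinase, was low, with 2.70 and 2.57 FPKM in shMLKL TBZ, 1.76 and 1.07 in shMLKL DMSO, 4.78 and 4.61 in shGFP TBZ and 3.18 and 2.60 in shGFP DMSO libraries. It rose by 0.60 in shMLKL cells (adjusted p = 0.0113) and by 0.55 in shGFP cells (adjusted p = 0.0109). The MVK call was lost in shMLKL cells without shMLKL TBZ library 1 (0.58, adjusted p = 0.0561), and in shGFP cells without shGFP DMSO library 2 (0.45, adjusted p = 0.0753) or shGFP TBZ library 1 (0.53, adjusted p = 0.0563). PMVK, phosphomevalonate kinase, was the 1 sterol enzyme lower with TBZ in both lines. It had 4.06 and 4.75 FPKM in shMLKL TBZ, 6.97 and 5.41 in shMLKL DMSO, 5.58 and 5.51 in shGFP TBZ and 7.21 and 6.93 in shGFP DMSO libraries, differences of -0.41 in shMLKL cells (adjusted p = 0.0212) and -0.30 in shGFP cells (adjusted p = 0.0456). The PMVK call was lost in shMLKL cells without shMLKL DMSO library 1 (-0.25, adjusted p = 0.098) or shMLKL TBZ library 1 (-0.32, adjusted p = 0.113), and in shGFP cells in 10 of 17 alternatives, among them the removal of any 1 of the 4 shGFP libraries (-0.33 to -0.28, adjusted p up to 0.169).

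MVD, mevalonate diphosphate decarboxylase, had 3.05 and 3.22 FPKM in shMLKL TBZ, 2.63 and 1.81 in shMLKL DMSO, 4.04 and 4.53 in shGFP TBZ and 3.38 and 3.34 in shGFP DMSO libraries. Its log2 difference was 0.37 in shMLKL cells (adjusted p = 0.0428) and 0.28 in shGFP cells (adjusted p = 0.0821). The MVD call in shMLKL cells was lost in 10 of 16 alternatives, among them the removal of any 1 library except shMLKL DMSO library 1 (0.19 to 0.40, adjusted p up to 0.176). FDPS, farnesyl diphosphate synthase, had 48.6 and 35.0 FPKM in shMLKL TBZ, 37.1 and 38.3 in shMLKL DMSO, 49.8 and 53.2 in shGFP TBZ and 51.2 and 47.9 in shGFP DMSO libraries. It passed in neither line, with 95% intervals of -0.17 to 0.43 in shMLKL cells (adjusted p = 0.478) and -0.25 to 0.35 in shGFP cells (adjusted p = 0.737). FDFT1, squalene synthase, had 33.1 and 32.2 FPKM in shMLKL TBZ, 30.9 and 27.2 in shMLKL DMSO, 59.6 and 58.9 in shGFP TBZ and 52.8 and 54.0 in shGFP DMSO libraries. Its differences were 0.16 in shMLKL cells (adjusted p = 0.0584) and 0.15 in shGFP cells (adjusted p = 0.0603), and neither passed.

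From squalene onward, 4 of 10 enzymes rose and 1 fell in shMLKL cells, and 7 rose and 0 fell in shGFP cells, against 20.0% of all tested genes higher and 17.6% lower in shMLKL cells and 19.1% higher and 37.3% lower in shGFP cells. In shGFP cells 0 were also lower at an unadjusted p under 0.05 by limma. MSMO1 (chr4:166248818-166264314, plus strand, hg19), the methylsterol monooxygenase, had 8.60 and 8.40 FPKM with TBZ and 7.06 and 6.29 FPKM with DMSO in shMLKL cells, a 1.27-fold ratio (log2 difference 0.31, SE 0.07, adjusted p = 0.008). In shGFP cells MSMO1 had 33.6 and 30.7 FPKM with TBZ and 7.10 and 7.10 FPKM with DMSO, a 4.53-fold ratio (log2 difference 2.03, SE 0.07, adjusted p = 2.89e-07). The shMLKL TBZ libraries of MSMO1 lay just above all 4 DMSO libraries. SQLE (chr8:126010720-126034525, plus strand), squalene epoxidase, a rate-limiting enzyme of this stretch, had 59.8 and 57.7 FPKM with TBZ and 36.3 and 33.6 FPKM with DMSO in shMLKL cells (log2 difference 0.73, SE 0.07, adjusted p = 0.00013). In shGFP cells SQLE had 88.0 and 80.2 FPKM with TBZ and 40.3 and 36.5 FPKM with DMSO (log2 difference 1.11, SE 0.07, adjusted p = 7.66e-06). The ratios of means of SQLE were 1.68-fold in shMLKL cells and 2.19-fold in shGFP cells.

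CYP51A1 (chr7:91741463-91764059, minus strand), lanosterol demethylase, had 49.1 and 51.1 FPKM with TBZ and 49.0 and 50.3 FPKM with DMSO in shMLKL cells, overlapping values with a 95% interval of -0.07 to 0.10 for the log2 difference (adjusted p = 0.832). In shGFP cells CYP51A1 rose, with 75.0 and 72.6 FPKM with TBZ and 45.0 and 45.2 FPKM with DMSO (log2 difference 0.70, SE 0.04, adjusted p = 3.62e-06). SC5D, the sterol C5 desaturase, rose in both lines by similar amounts. It had 10.8 and 11.2 FPKM with TBZ and 6.32 and 6.71 FPKM with DMSO in shMLKL cells (log2 difference 0.67, SE 0.05, adjusted p = 5.12e-05). In shGFP cells SC5D had 17.1 and 17.7 FPKM with TBZ and 10.1 and 9.97 FPKM with DMSO (log2 difference 0.73, SE 0.05, adjusted p = 1.73e-05). DHCR7, the reductase of the last step to cholesterol in its branch, had 15.6 and 16.6 FPKM with TBZ and 14.2 and 14.4 FPKM with DMSO in shMLKL cells (log2 difference 0.16, SE 0.05, adjusted p = 0.0371). The DHCR7 call in shMLKL cells was lost in 10 of 17 alternatives, among them the removal of either shMLKL DMSO library, shMLKL TBZ library 2 or either shGFP TBZ library (0.12 to 0.17, adjusted p up to 0.169). In shGFP cells DHCR7 had 33.5 and 32.3 FPKM with TBZ and 21.9 and 20.6 FPKM with DMSO (log2 difference 0.61, SE 0.05, adjusted p = 3.81e-05).

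Of the remaining enzymes of this stretch, HSD17B7, the 3-ketosteroid reductase, had 2.21 and 2.51 FPKM in shMLKL TBZ, 1.83 and 2.09 in shMLKL DMSO, 4.45 and 4.88 in shGFP TBZ and 3.10 and 3.22 in shGFP DMSO libraries. Its difference was 0.18 in shMLKL cells (adjusted p = 0.126), and it rose by 0.45 in shGFP cells (adjusted p = 0.00282). EBP, the sterol isomerase, had 21.7 and 23.8 FPKM in shMLKL TBZ, 19.5 and 20.4 in shMLKL DMSO, 28.0 and 25.6 in shGFP TBZ and 23.7 and 22.6 in shGFP DMSO libraries. Its difference was 0.18 in shMLKL cells (adjusted p = 0.0563), and it rose by 0.20 in shGFP cells (adjusted p = 0.0265). The shGFP call for EBP was lost without shGFP DMSO library 1 (0.23, adjusted p = 0.0577), shGFP DMSO library 2 (0.17, adjusted p = 0.129) or shGFP TBZ library 1 (0.14, adjusted p = 0.156). NSDHL, the decarboxylase that works after MSMO1, was the 1 enzyme of this stretch that fell. It had 12.4 and 13.7 FPKM with TBZ and 16.8 and 14.6 FPKM with DMSO in shMLKL cells (-0.25, adjusted p = 0.0283), beside 17.7 and 17.9 FPKM with TBZ and 15.6 and 16.1 FPKM with DMSO in shGFP cells (0.16, adjusted p = 0.0978). The NSDHL call was lost in 6 of 17 alternatives, among them the removal of shMLKL DMSO library 1, shMLKL TBZ library 1 or either shGFP DMSO library (-0.25 to -0.16, adjusted p up to 0.145).

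LSS, lanosterol synthase, had 1.81 and 1.69 FPKM in shMLKL TBZ, 1.85 and 1.70 in shMLKL DMSO, 2.30 and 2.17 in shGFP TBZ and 2.42 and 2.38 in shGFP DMSO libraries. It passed in neither line, with 95% intervals of -0.18 to 0.16 in shMLKL cells (adjusted p = 0.908) and -0.24 to 0.10 in shGFP cells (adjusted p = 0.414). TM7SF2, a sterol C14 reductase, had 2.80 and 3.51 FPKM in shMLKL TBZ, 3.96 and 4.93 in shGFP TBZ and 4.92 and 4.62 in shGFP DMSO libraries, and in the shMLKL DMSO libraries it was listed at 0 in library 1 and had 2.53 FPKM in library 2. The TM7SF2 difference was 1.14 in shMLKL cells (SE 0.48, adjusted p = 0.104), and 2.05 (adjusted p = 0.000312) without shMLKL DMSO library 2, where it rests on the listed 0 alone. In shGFP cells the TM7SF2 interval was -1.22 to 1.04 (adjusted p = 0.888).

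Of the 3 sterol transport genes, STARD4 and NPC1 rose in both lines. STARD4 (chr5:110834022-110848157, minus strand), a cytosolic sterol carrier and SREBP2 target, had 8.31 and 8.97 FPKM with TBZ and 4.78 and 4.53 FPKM with DMSO in shMLKL cells (log2 difference 0.77, SE 0.06, adjusted p = 4.66e-05). In shGFP cells STARD4 had 20.0 and 20.7 FPKM with TBZ and 6.09 and 6.26 FPKM with DMSO (log2 difference 1.57, SE 0.06, adjusted p = 5.06e-07). NPC1 (chr18:21111463-21166581, minus strand), the membrane protein that exports cholesterol from lysosomes, had 19.2 and 19.0 FPKM with TBZ and 16.2 and 16.6 FPKM with DMSO in shMLKL cells (log2 difference 0.21, SE 0.05, adjusted p = 0.011), a call lost without shMLKL DMSO library 1 (0.19, adjusted p = 0.0601). In shGFP cells NPC1 had 17.1 and 17.1 FPKM with TBZ and 6.67 and 7.23 FPKM with DMSO (log2 difference 1.19, SE 0.05, adjusted p = 9.23e-07). The shMLKL DMSO libraries of NPC1 lay close to the shGFP TBZ libraries. NPC2, its soluble partner in the lysosome lumen, had 19.6 and 20.1 FPKM in shMLKL TBZ, 18.7 and 20.9 in shMLKL DMSO, 22.4 and 22.9 in shGFP TBZ and 25.8 and 24.9 in shGFP DMSO libraries. Its difference was 0.01 in shMLKL cells (adjusted p = 0.948) and -0.16 in shGFP cells (adjusted p = 0.0416), the call in shGFP cells being lost in 9 of 17 alternatives, among them the removal of any 1 of the 4 shGFP libraries or of either shMLKL TBZ library (-0.18 to -0.13, adjusted p up to 0.171).

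In the fatty acid branch ELOVL6 had the largest fall, and the TBZ differences of the other 5 tested genes lay between -0.37 and 0.42 in both lines. SCD (chr10:102106772-102124588, plus strand), the stearoyl-CoA desaturase and the most abundant of the 34 genes in every library, had 124 and 125 FPKM with TBZ and 129.9 and 127 FPKM with DMSO in shMLKL cells, with a 95% interval of -0.12 to 0.04 for the log2 difference (adjusted p = 0.415). In shGFP cells SCD had 207 and 197 FPKM with TBZ and 209 and 207 FPKM with DMSO (interval -0.12 to 0.04, adjusted p = 0.309). FASN (chr17:80036214-80056106, minus strand), fatty acid synthase, fell in shMLKL cells, with 2.57 and 2.39 FPKM with TBZ and 3.60 and 3.40 FPKM with DMSO (log2 difference -0.37, SE 0.06, adjusted p = 0.00225). In shGFP cells FASN had 10.1 and 9.98 FPKM with TBZ and 9.43 and 9.76 FPKM with DMSO (log2 difference 0.06, 95% interval -0.08 to 0.20, adjusted p = 0.417). ELOVL6 (chr4:110970229-111119820, minus strand), which extends palmitate towards stearate, fell in both lines. It had 9.62 and 8.87 FPKM with TBZ and 14.9 and 15.5 FPKM with DMSO in shMLKL cells (-0.66, SE 0.06, adjusted p = 0.000112). In shGFP cells ELOVL6 had 11.6 and 12.6 FPKM with TBZ and 20.8 and 21.4 FPKM with DMSO (-0.75, SE 0.06, adjusted p = 3.22e-05).

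ACACA (chr17:35441927-35766902, minus strand), acetyl-CoA carboxylase, which commits acetyl-CoA to fatty acids, fell in both lines too. It had 14.2 and 15.4 FPKM with TBZ and 16.8 and 16.8 FPKM with DMSO in shMLKL cells (-0.18, SE 0.05, adjusted p = 0.0228), a call lost without shMLKL DMSO library 1 (-0.18, adjusted p = 0.0807), shMLKL DMSO library 2 (-0.17, adjusted p = 0.0798) or shMLKL TBZ library 1 (-0.12, adjusted p = 0.104). In shGFP cells ACACA had 25.3 and 24.3 FPKM with TBZ and 31.3 and 31.8 FPKM with DMSO (-0.33, SE 0.05, adjusted p = 0.000761). ACLY, which makes cytosolic acetyl-CoA from citrate for both branches, had 18.4 and 19.6 FPKM in shMLKL TBZ, 18.5 and 17.8 in shMLKL DMSO, 24.2 and 23.2 in shGFP TBZ and 23.1 and 23.1 in shGFP DMSO libraries. It passed in neither line, with 95% intervals of -0.04 to 0.17 in shMLKL cells (adjusted p = 0.299) and -0.07 to 0.14 in shGFP cells (adjusted p = 0.532). ACSS2, which makes acetyl-CoA from acetate, was the 1 fatty acid gene that rose, in shMLKL cells. It had 2.82 and 2.33 FPKM with TBZ and 1.497 and 1.84 FPKM with DMSO there (0.42, adjusted p = 0.0113), a call lost without shMLKL DMSO library 1 (0.33, adjusted p = 0.0689) or shMLKL TBZ library 1 (0.32, adjusted p = 0.0636). In shGFP cells ACSS2 had 5.76 and 5.65 FPKM with TBZ and 4.78 and 5.26 FPKM with DMSO (0.16, adjusted p = 0.2).

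**Figure D2:**
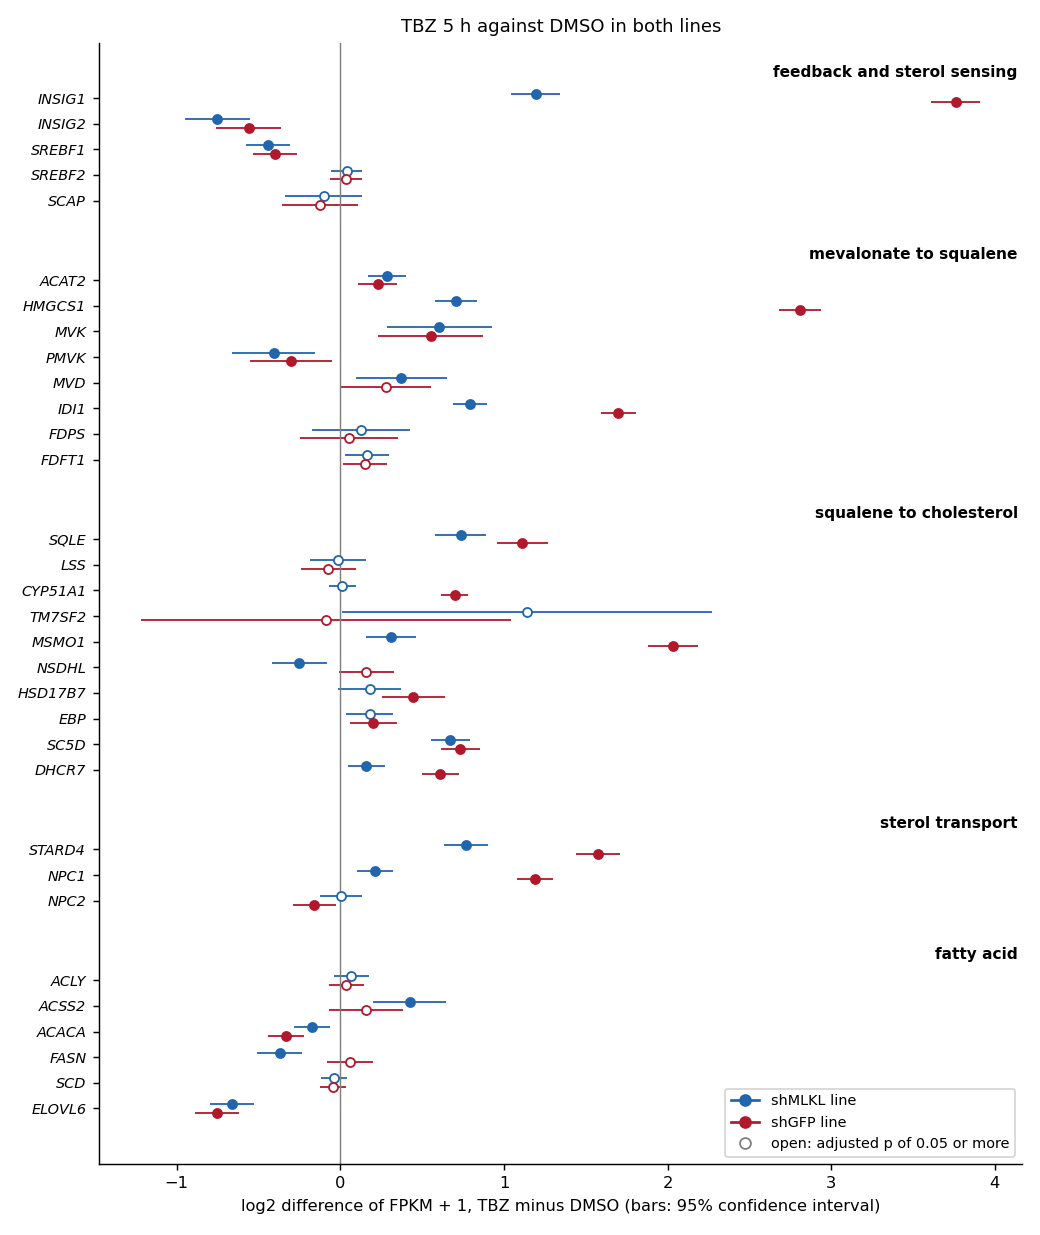
Log2 difference of FPKM + 1 between TBZ and DMSO for each tested gene (points, with 95% intervals from limma), shMLKL cells above shGFP cells in each row, open points not passing. INSIG1 (3.76), HMGCS1 (2.81) and MSMO1 (2.03) reach farthest in shGFP cells, and the fatty acid genes lie between -0.75 and 0.42 over both lines.

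The TBZ responses of the lines were compared as the log2 difference in shMLKL cells minus that in shGFP cells. The sterol genes with the strongest response had a smaller one in shMLKL cells. The difference was negative and passed for 11 of the 32 genes, against 7.66% of all tested genes lower, and positive and passed for 0, against 14.6% of all tested genes higher. By limma at an unadjusted p under 0.05 it was positive for 1, ACACA (0.16, adjusted p = 0.128), while 1 gene passed as positive without shMLKL DMSO library 2, TM7SF2, and 1 without shMLKL TBZ library 2, FDPS. The median of all tested genes was 0.10 in this comparison. The difference was -2.57 for INSIG1 (SE 0.09, adjusted p = 6.78e-06), -2.10 for HMGCS1 (SE 0.08, adjusted p = 6.78e-06) and -1.72 for MSMO1 (SE 0.09, adjusted p = 3.38e-05). It was -0.98 for NPC1 (adjusted p = 0.000103), -0.91 for IDI1 (adjusted p = 0.000119), -0.81 for STARD4 (adjusted p = 0.000623) and -0.69 for CYP51A1 (adjusted p = 0.000147). Smaller differences were -0.45 for DHCR7 (adjusted p = 0.00418), -0.43 for FASN (adjusted p = 0.0119), -0.41 for NSDHL (adjusted p = 0.0281) and -0.38 for SQLE (adjusted p = 0.0272). Of the 8 tested colon epithelial markers 2 also had a lower difference of responses: KRT20, a keratin of differentiated enterocytes, at -1.54 (adjusted p = 2.4e-06) and CDH1, E-cadherin, at -0.17 (adjusted p = 0.0427). KRT20 had 188 and 188 FPKM with TBZ and 229 and 234 FPKM with DMSO in shMLKL cells, and 209 and 209 FPKM with TBZ and 86.1 and 89.3 FPKM with DMSO in shGFP cells. The part of these markers in the sterol results was not tested. This test shares the libraries of the TBZ comparisons above, so its order of genes is not independent of theirs. Differences that did not pass were -0.06 for SC5D (95% interval -0.23 to 0.10), 0.06 for ACAT2 (-0.11 to 0.22), -0.04 for SREBF1 (-0.24 to 0.15) and 0.09 for ELOVL6 (-0.10 to 0.28).

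The calls for FASN, SQLE and NSDHL depended on single libraries. That of FASN was lost without shGFP DMSO library 1 (-0.41, adjusted p = 0.05). That of SQLE was lost in 6 of 16 alternatives, among them the removal of shMLKL DMSO library 1, either shMLKL TBZ library, shGFP DMSO library 2 or shGFP TBZ library 1 (-0.40 to -0.31, adjusted p up to 0.0818). That of NSDHL was lost in 7 of 16, among them the removal of shMLKL DMSO library 1, shMLKL TBZ library 1 or any 1 of the 4 shGFP libraries (-0.43 to -0.31, adjusted p up to 0.0917).

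Between the lines themselves, shMLKL cells had lower levels of most of these genes. With TBZ 25 of the 32 were lower in shMLKL than in shGFP cells and 2 were higher, against 31.0% of all tested genes lower and 20.7% higher. With DMSO 22 were lower and 3 were higher, against 44.8% of all tested genes lower and 18.3% higher, so the DMSO count stands on a broad background of lower genes. These conditions use separate libraries but a shared estimate of each gene's spread, so their calls are not independent. In both of them 20 genes were lower, a count for which no share of all tested genes was taken. Of the 2 genes higher with TBZ, neither passed without shMLKL TBZ library 1 or shGFP TBZ library 1, and INSIG2 alone passed without shMLKL TBZ library 2 or shGFP TBZ library 2. Median log2 differences with TBZ were -0.58 for the sterol enzymes, -0.70 for the fatty acid genes and -0.06 for all tested genes, and with DMSO they were -0.36 for the sterol enzymes, -0.78 for the fatty acid genes and -0.16 for all tested genes. All 6 tested fatty acid genes were lower in shMLKL cells with TBZ and with DMSO. Their libraries did not overlap between the lines in either condition, but the share of all tested genes without overlap was not counted. FASN had 2.57 and 2.39 FPKM in shMLKL TBZ libraries, against 10.1 and 9.98 FPKM in shGFP TBZ libraries (-1.66, SE 0.06, adjusted p = 2.14e-06), and its DMSO difference was -1.24 (SE 0.06, adjusted p = 4.53e-06). SCD had 129.9 and 127 FPKM in shMLKL DMSO libraries, against 209 and 207 FPKM in shGFP DMSO libraries (-0.69, SE 0.03, adjusted p = 4.77e-06), and its TBZ difference was -0.69 (adjusted p = 7.68e-06). With DMSO ACSS2 differed by -1.18 (adjusted p = 4.51e-05), ACACA by -0.87 (adjusted p = 7.31e-06), ELOVL6 by -0.45 (adjusted p = 0.000412) and ACLY by -0.33 (adjusted p = 0.000562).

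Within the sterol branch the DMSO difference between the lines was uneven. FDFT1 (-0.86, adjusted p = 1.81e-05), ACAT2 (-0.73, adjusted p = 2.07e-05), MVK (-0.70, adjusted p = 0.00312), SC5D (-0.56, adjusted p = 7.11e-05) and DHCR7 (-0.53, adjusted p = 7.2e-05) were lower in shMLKL cells. HMGCS1 (0.10, 95% interval -0.03 to 0.23), MSMO1 (-0.08, -0.23 to 0.07) and SQLE (-0.13, -0.28 to 0.02) did not pass. The 3 genes higher in shMLKL cells with DMSO were NPC1 (1.13, SE 0.05, adjusted p = 2.82e-06), INSIG2 (0.50, SE 0.09, adjusted p = 0.00152) and CYP51A1 (0.14, SE 0.04, adjusted p = 0.0119). The CYP51A1 call was lost without shMLKL DMSO library 2 (0.12, adjusted p = 0.0632). INSIG1 differed by -0.18 with DMSO (adjusted p = 0.0414), a call lost in 11 of 17 alternatives, among them the removal of either shMLKL DMSO library, shGFP DMSO library 1 or either shGFP TBZ library (adjusted p up to 0.226), and of the other sign, 0.01, after quantile normalization (adjusted p = 0.92). TM7SF2 differed by -1.62 (adjusted p = 0.0205), which rests on the library where it was listed at 0 and was lost without shGFP DMSO library 1 (adjusted p = 0.0909) or 2 (adjusted p = 0.0788). FDPS differed by -0.38 (adjusted p = 0.032), a call lost in 9 of 17 alternatives, and MVD by -0.45 (adjusted p = 0.0121), lost in 4 of 16.

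With TBZ the gap between the lines was widest for INSIG1, HMGCS1 and MSMO1. INSIG1 had a difference of -2.75 (SE 0.07, adjusted p = 3.95e-07), HMGCS1 of -2.01 (SE 0.06, adjusted p = 8.63e-07) and MSMO1 of -1.80 (SE 0.07, adjusted p = 2.14e-06). IDI1 differed by -1.25 (adjusted p = 2.14e-06), STARD4 by -1.15 (adjusted p = 7.68e-06) and DHCR7 by -0.99 (adjusted p = 7.68e-06). The factor SREBF2 was lower in shMLKL cells with TBZ (-0.35, adjusted p = 0.000393) and with DMSO (-0.35, adjusted p = 0.000248), and SREBF1 passed in neither (-0.16, adjusted p = 0.0505, and -0.12, adjusted p = 0.116). The 2 genes higher in shMLKL cells with TBZ were INSIG2 (0.31, adjusted p = 0.0179) and NPC1 (0.15, adjusted p = 0.0317). The INSIG2 call was lost without shMLKL TBZ library 1 (0.26, adjusted p = 0.0955) or shGFP TBZ library 1 (0.19, adjusted p = 0.0875), and the NPC1 call without any 1 of the 4 TBZ libraries (0.15, adjusted p up to 0.105).

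**Figure D3:**
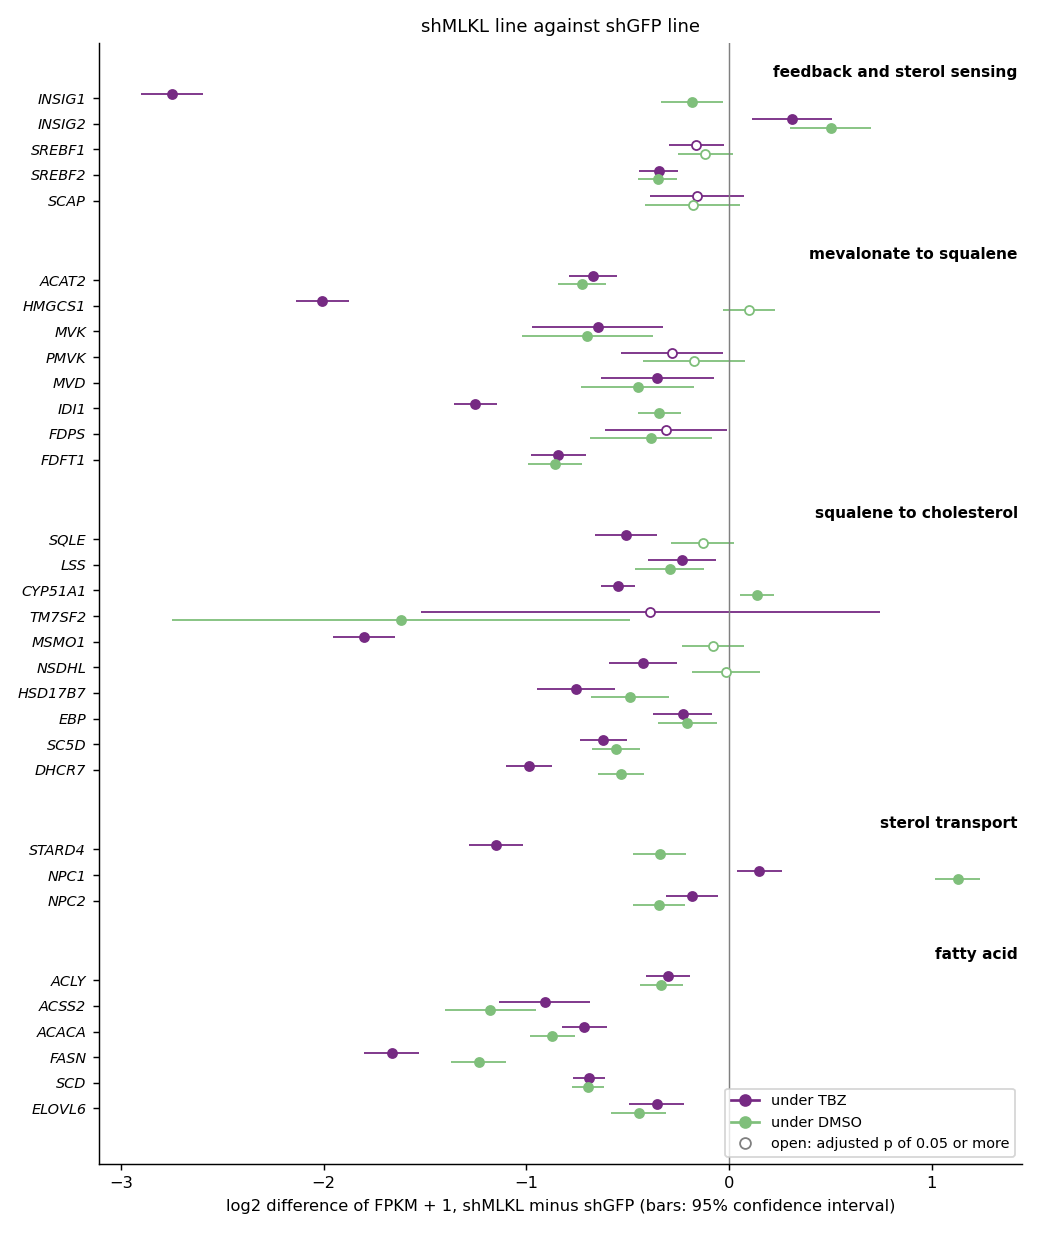
Log2 difference of FPKM + 1 between shMLKL and shGFP cells for each tested gene (points, with 95% intervals from limma), TBZ above DMSO in each row, open points not passing. Most genes lie below 0 in both conditions, and INSIG1, HMGCS1 and MSMO1 lie between -2.75 and -1.80 with TBZ and between -0.18 and 0.10 with DMSO.

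Other genes of the pathway and its surroundings were mixed. Of 12 genes of SREBP processing and sterol-regulated degradation 5 rose and 2 fell in shMLKL cells, and 5 rose and 3 fell in shGFP cells, against 20.0% of all tested genes higher and 17.6% lower in shMLKL cells and 19.1% higher and 37.3% lower in shGFP cells. Among them SEC24A, a COPII coat protein of vesicles bound for the Golgi, had 14.4 and 15.1 FPKM with TBZ and 8.99 and 9.41 FPKM with DMSO in shMLKL cells (0.63, adjusted p = 5.57e-05), and 13.8 and 14.2 FPKM with TBZ and 8.89 and 8.84 FPKM with DMSO in shGFP cells (0.61, adjusted p = 3.77e-05). SEC24D, another such coat protein, rose by 0.46 in shMLKL cells (adjusted p = 0.00183) and by 0.32 in shGFP cells (adjusted p = 0.00596). PAQR3, a Golgi protein that tethers SCAP and SREBP, rose by 0.38 in shMLKL cells (adjusted p = 0.00434) and by 0.41 in shGFP cells (adjusted p = 0.00201). Of 7 tested genes of isoprenoid branches 0 passed in shMLKL cells, where 1 had an unadjusted p under 0.05 by limma, and 0 rose and 1 fell in shGFP cells. That 1 was COQ2, of ubiquinone synthesis (-0.28, adjusted p = 0.0119).

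Of 13 other tested genes of fatty acid synthesis and activation 4 rose and 1 fell in shMLKL cells, and 6 rose and 2 fell in shGFP cells, against 20.0% of all tested genes higher and 17.6% lower in shMLKL cells and 19.1% higher and 37.3% lower in shGFP cells. ELOVL7, an elongase of long-chain acyl-CoAs, had 23.0 and 23.9 FPKM with TBZ and 7.69 and 6.59 FPKM with DMSO in shMLKL cells (1.59, SE 0.07, adjusted p = 2.58e-06), and 21.3 and 21.5 FPKM with TBZ and 3.68 and 3.64 FPKM with DMSO in shGFP cells (2.26, SE 0.07, adjusted p = 2.01e-07). ELOVL7 thus rose in both lines, where ELOVL6 fell. ME1, malic enzyme, which supplies NADPH, rose by 0.25 in shMLKL cells (adjusted p = 0.0384) and by 0.47 in shGFP cells (adjusted p = 0.00156). HACD3, a dehydratase of fatty acid elongation, had a difference of -0.02 in shMLKL cells (adjusted p = 0.725) and of -0.41 in shGFP cells (adjusted p = 0.000205).

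Of 13 genes of triglyceride and phospholipid synthesis 4 rose and 3 fell in shMLKL cells, and 3 rose and 4 fell in shGFP cells, against 20.0% of all tested genes higher and 17.6% lower in shMLKL cells and 19.1% higher and 37.3% lower in shGFP cells. LPIN1, a phosphatidate phosphatase, had 3.64 and 4.54 FPKM with TBZ and 2.62 and 2.48 FPKM with DMSO in shMLKL cells (0.51, adjusted p = 0.00361), and 6.90 and 6.72 FPKM with TBZ and 1.89 and 1.82 FPKM with DMSO in shGFP cells (1.45, adjusted p = 1.04e-05). The difference of these responses was -0.94 (adjusted p = 0.00275). Its paralogue LPIN2 had differences of -0.78 in shMLKL cells (adjusted p = 3.16e-05) and -0.30 in shGFP cells (adjusted p = 0.00244), and AGPAT2, an acyltransferase of the same route, of -0.39 in shMLKL cells (adjusted p = 0.00716) and -0.23 in shGFP cells (adjusted p = 0.0408).

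A last list held genes of LXR signalling and of sterol efflux, storage and uptake, and others outside these classes, such as POR, NR1D1 and C14orf1. Of its 19 tested genes 3 rose and 2 fell in shMLKL cells, and 2 rose and 4 fell in shGFP cells. Of all tested genes 20.0% were higher and 17.6% lower in shMLKL cells, and 19.1% higher and 37.3% lower in shGFP cells. The 2 that rose in shGFP cells were POR (0.19) and NR1D1. Among the 3 that rose in shMLKL cells was C14orf1 (0.43). The counts thus do not describe LXR and efflux genes alone. ABCA1, the cholesterol efflux pump and an LXR target, had 0.771 and 0.804 FPKM with TBZ and 1.08 and 0.989 FPKM with DMSO in shMLKL cells (-0.19, adjusted p = 0.103), and 0.502 and 0.488 FPKM with TBZ and 1.47 and 1.54 FPKM with DMSO in shGFP cells (-0.74, adjusted p = 0.000166). NR1H3, which encodes LXRα, had 8.07 and 7.37 FPKM with TBZ and 8.39 and 7.96 FPKM with DMSO in shMLKL cells (-0.07, adjusted p = 0.346), and 11.0 and 10.5 FPKM with TBZ and 18.3 and 18.7 FPKM with DMSO in shGFP cells (-0.73, adjusted p = 3.54e-05). The difference of responses passed for ABCA1 (0.56, adjusted p = 0.0127) and for NR1H3 (0.66, adjusted p = 0.00172). NR1D1, which encodes REV-ERBα, had differences of -0.22 in shMLKL cells (adjusted p = 0.101) and 0.50 in shGFP cells (adjusted p = 0.00258).

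The earlier experiment had 1 library per group, so its differences have no replicate check and no test. Its values are sums of RefSeq transcripts as estimated by Cufflinks, whose 95% intervals cover estimation within a library only, and genes past 1.5-fold were counted. In it 7 of the 34 genes were listed at 0 in at least 1 library. For 26 genes the Cufflinks locus held no other gene in any library, so that the sum over the locus could be set beside the RefSeq sum. At 4 h of TBZ in parental cells 11 of 32 genes were past 1.5-fold higher and 5 lower, against 14.4% of all genes higher and 27.3% lower. With library medians set equal 1 was lower in place of 5. Of the 26 genes with both sums, 7 were past the fold higher and 2 lower by each of them with no value at 0. At 12 h of TBZ in shMLKL cells 16 were past 1.5-fold higher and 4 lower, against 15.6% of all genes higher and 21.6% lower, and with library medians set equal 2 were lower in place of 4. By both sums with no value at 0, 8 of the 26 were higher and 0 lower at 12 h. Of the 13 sterol enzymes with both sums, 5 were higher and 0 lower at 4 h, and 5 were higher and 0 lower at 12 h. No share of all genes was taken for the counts by both sums or with medians set equal. The shares above are by RefSeq sums with values at 0 kept and without equal medians, so these counts cannot be read against them. The median log2 difference of all genes was -0.21 at 4 h and -0.12 at 12 h.

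INSIG1 had the largest ratio here too among genes with no value at 0. Its sum was 128 FPKM (interval 122 to 134) at 4 h of TBZ, against 4.27 FPKM (3.75 to 4.84) in parental DMSO cells, and 44.3 FPKM (41.6 to 47.0) at 12 h of TBZ, against 4.57 FPKM (4.07 to 5.10) in shMLKL DMSO cells. Of its RefSeq transcripts, one had 100.2 FPKM and another 27.9 FPKM at 4 h of TBZ, and the third was listed at 0 in all 4 libraries. The RefSeq transcripts of HMGCS1 were listed at 0 in both DMSO libraries, while its locus held 112 FPKM at 4 h of TBZ, against 11.0 FPKM in parental DMSO cells, and 31.8 FPKM at 12 h of TBZ, against 9.14 FPKM in shMLKL DMSO cells. IDI1 had a locus sum of 72.2 FPKM at 4 h of TBZ, against 23.5 FPKM in parental DMSO cells, and 45.3 FPKM at 12 h of TBZ, against 20.8 FPKM in shMLKL DMSO cells. MSMO1 had a locus sum of 30.4 FPKM at 4 h of TBZ, against 7.37 FPKM in parental DMSO cells, and 24.0 FPKM at 12 h of TBZ, against 8.53 FPKM in shMLKL DMSO cells. All 3 enzymes thus stood higher with TBZ in both pairs of libraries.

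SQLE, whose locus was shared with another gene in at least 1 library, had 85.2 FPKM by RefSeq transcripts at 4 h of TBZ, against 30.4 FPKM in parental DMSO cells, and 98.9 FPKM at 12 h of TBZ, against 31.5 FPKM in shMLKL DMSO cells. CYP51A1 had 50.01 FPKM (interval 47.0 to 53.0) at 4 h of TBZ, against 28.4 FPKM (26.3 to 30.5) in parental DMSO cells, and 40.4 FPKM (37.8 to 42.9) at 12 h of TBZ, against 25.4 FPKM (23.5 to 27.4) in shMLKL DMSO cells. CYP51A1 thus stood higher at 12 h in shMLKL cells, which at 5 h in the main experiment showed no difference that passed. NPC1 had 24.6 FPKM at 4 h of TBZ, against 9.04 FPKM in parental DMSO cells, and 21.5 FPKM at 12 h of TBZ, against 9.64 FPKM in shMLKL DMSO cells. The shMLKL DMSO library was close to the parental one for NPC1 here, whereas in the main experiment the shMLKL DMSO level lay above that of shGFP cells.

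In the fatty acid branch of the earlier experiment ACACA was lower with TBZ in both pairs: its locus held 18.4 FPKM at 4 h of TBZ, against 35.0 FPKM in parental DMSO cells, and 22.8 FPKM at 12 h of TBZ, against 42.1 FPKM in shMLKL DMSO cells. FASN had 25.1 FPKM at 4 h of TBZ, against 31.3 FPKM in parental DMSO cells, and 25.8 FPKM at 12 h of TBZ, against 26.6 FPKM in shMLKL DMSO cells. SCD had 163 FPKM at 4 h of TBZ, against 201 FPKM in parental DMSO cells, and 259 FPKM at 12 h of TBZ, against 251 FPKM in shMLKL DMSO cells. Neither FASN nor SCD was past 1.5-fold. By RefSeq transcripts ELOVL6 had 6.86 FPKM at 4 h of TBZ, against 12.5 FPKM in parental DMSO cells, and 4.82 FPKM at 12 h of TBZ, against 12.5 FPKM in shMLKL DMSO cells. By locus ELOVL6 had 18.3 FPKM at 12 h of TBZ, against 15.6 FPKM in shMLKL DMSO cells, which is the other direction. SREBF1 had 15.1 FPKM at 4 h of TBZ, against 24.8 FPKM in parental DMSO cells, by both sums. At 12 h it had 16.8 FPKM with TBZ, against 9.22 FPKM in shMLKL DMSO cells, by RefSeq transcripts, and 29.5 FPKM with TBZ, against 37.4 FPKM in shMLKL DMSO cells, by locus, so its direction at 12 h depended on the sum. MLKL itself had 6.16 FPKM at 4 h of TBZ, against 6.31 FPKM in parental DMSO cells, and 2.14 FPKM at 12 h of TBZ, against 0.854 FPKM in shMLKL DMSO cells. Cells, times and libraries differ between the experiments, so their values stand side by side.

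**Figure D4:**
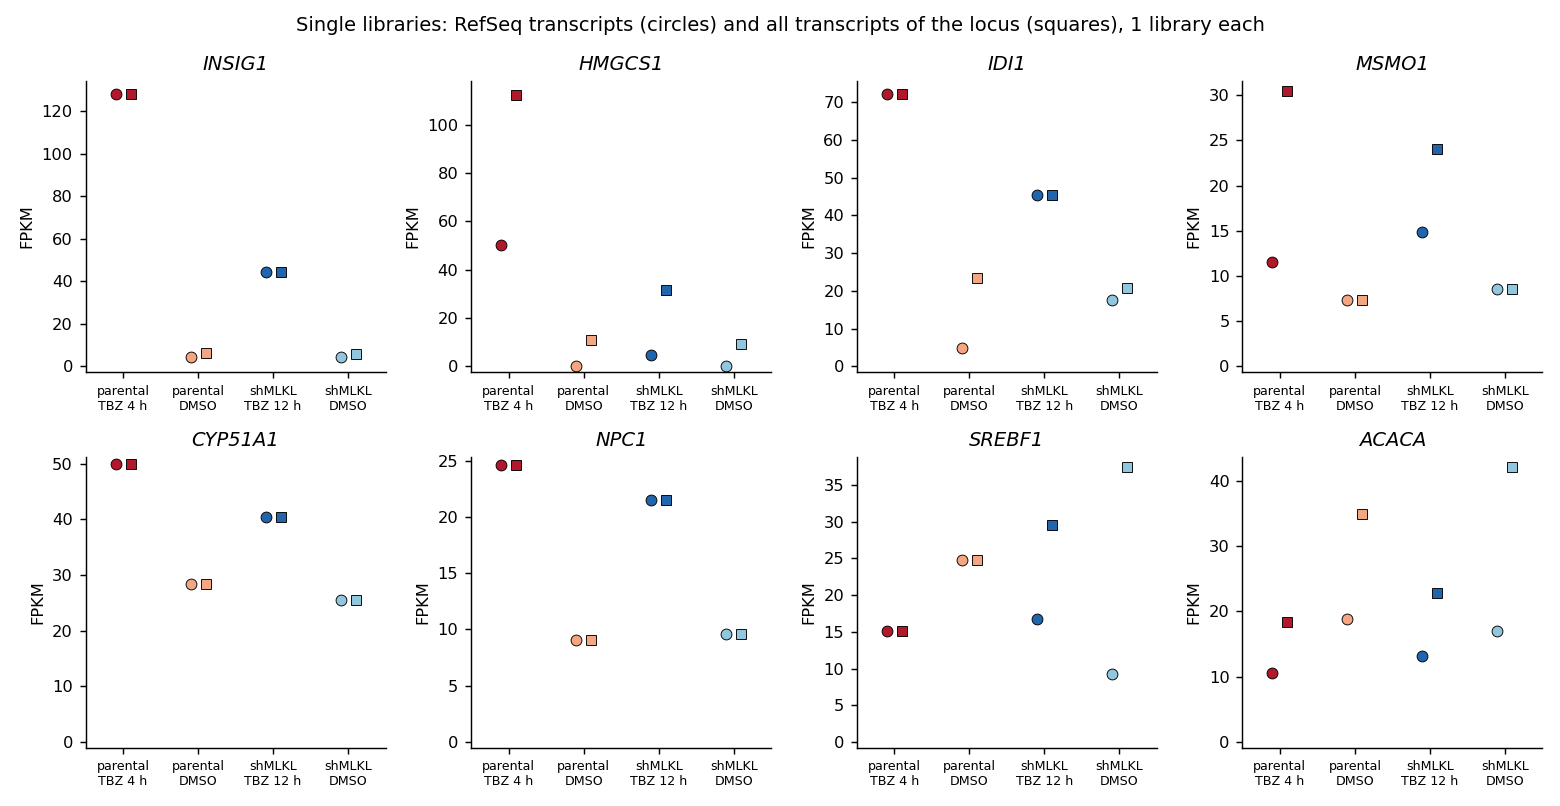
FPKM (linear axis) of 8 genes in the 4 single libraries of the earlier experiment, circles for sums of RefSeq transcripts and squares for sums over the locus. INSIG1 was at 128 FPKM at 4 h of TBZ, against 4.27 FPKM in parental DMSO cells, and at 44.3 FPKM at 12 h of TBZ, against 4.57 FPKM in shMLKL DMSO cells.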

How the data were processed

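Per the labels' protocols, total RNA of HT-29 cells was poly-A selected, made into stranded TruSeq libraries and sequenced as 100 nt paired-end reads. The submitters' processing notes name hg19, TopHat2 2.0.13, STAR 2.4.0f1, Cufflinks 2.2.1 and GATK, with no role or order for each. The authors deposited FPKM values: 1 table of 29437 lines for the 8 libraries of the main experiment, and 1 Cufflinks transcript file for each of the 4 earlier libraries, whose FPKM and 95% limits were read from the attribute text. FPKM as the unit of the table is inferred from its values and the tools named.

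One line stood for each gene of the list, and for the 384 other symbols on several lines the highest one by mean was used. The 10364 genes that averaged 1 FPKM or more in some group were transformed to log2(FPKM + 1) and fitted with limma 3.58.1 in R 4.3.3, as 4 group means with empirical Bayes moderation and a trend, two-sided, with Benjamini-Hochberg adjustment over all of them and calls under 0.05. On simulated data for TBZ against DMSO in shGFP cells, 200 of 10364 genes were changed, drawn from those with a mean log2(FPKM + 1) above 2. The fit recovered 81.6% of changes of 0.5, 96.8% of 1, 99.2% of -1 and 99.6% of 2 on the log2 scale, with 9.2 false calls a run on average. In the real comparison 19.1% of genes were called higher and 37.3% lower. The simulated rates therefore do not carry over to low genes or to so broad a response. In the earlier experiment 48723 of 49336 RefSeq transcripts matched a symbol and were summed. There 1 entry held 83.3% to 89.9% of a library's FPKM. Relative depth was 82.3% to 100% of the deepest library.

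The genes and lists were chosen with earlier results of these data known. All members were named, and of each wider list up to 3 called genes with the largest TBZ difference in either line. Alternatives changed the pseudocount, filter, scaling, spread, lines per symbol, replicate block and libraries. Sums over loci, for genes whose locus held no other gene, were added after seeing the data. Promoters came from RefSeq (GRCh38.p14); hg19 positions came from the deposited files. Certain genes of the pathway are not reported here.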

Additional observations from a re-analysis of the deposited data

Results flagged for a closer look

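The TBZ response differed between the lines, by limma's test of the difference, for 11 genes, each with a lower TBZ minus DMSO difference in shMLKL cells. The difference, shMLKL minus shGFP on the log2(FPKM + 1) scale, was -2.57 for INSIG1, -2.10 for HMGCS1 and -1.72 for MSMO1. It was -0.98 for NPC1, -0.91 for IDI1, -0.81 for STARD4 and -0.69 for CYP51A1. It was -0.45 for DHCR7, -0.43 for FASN, -0.41 for NSDHL and -0.38 for SQLE. INSIG1, HMGCS1, MSMO1, NPC1, IDI1, STARD4, SQLE and DHCR7 rose with TBZ in both lines, CYP51A1 rose in shGFP cells, and FASN and NSDHL fell in shMLKL cells. For NPC1 the TBZ level itself was not lower in shMLKL cells, at 19.2 and 19.0 FPKM against 17.1 and 17.1 FPKM in shGFP cells. Its DMSO level was 16.2 and 16.6 FPKM in shMLKL cells against 6.67 and 7.23 FPKM in shGFP cells. The 2-library groups were too small for a test of single outlying libraries.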

How the results depend on the processing

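Of 160 values, 32 genes in 5 comparisons, 103 were called, and 74 of these kept their call and direction under every alternative run: 12 of 20 for TBZ in shMLKL cells, 16 of 20 for TBZ in shGFP cells, 8 of 11 for the difference of responses, 21 of 27 for the lines with TBZ and 17 of 25 for the lines with DMSO. Fitted on the groups compared alone, 4 genes were lower with TBZ in shMLKL cells in place of 7, and 1 was higher in shMLKL cells with TBZ in place of 2; that alternative was not run for the difference, which needs all 8 libraries. INSIG1 in shMLKL against shGFP cells with DMSO changed sign to 0.0093 after quantile normalization. Leaving out 1 library at a time gave 11 to 12 higher and 4 to 7 lower for TBZ in shMLKL cells, 12 to 16 higher and 4 to 6 lower for TBZ in shGFP cells, 0 to 1 higher and 9 to 11 lower for the difference, 0 to 2 higher and 21 to 27 lower for the lines with TBZ, and 2 to 3 higher and 17 to 22 lower for the lines with DMSO; a lone library is then assumed to vary like the other groups. With the replicate number as a block, 154 of 160 values kept their call, 5 lost it and 1 gained it, with 11 higher and 7 lower in shMLKL cells and 14 higher and 5 lower in shGFP cells; same-numbered libraries did not deviate together (correlations -0.066 to 0.0282 over 6 pairs of groups), so the number is not taken to pair them. In the single libraries, equal medians left 1 gene past 1.5-fold lower at 4 h in place of 5 and 2 at 12 h in place of 4. Sums over the locus, chosen after seeing the data, changed the sign for SCAP (-0.67), STARD4 (1.496) and ACLY (-0.09) at 4 h, and for INSIG2 (-0.26), SREBF1 (-0.33), SREBF2 (0.24), SCAP (-0.38), MVK (0.32) and ELOVL6 (0.21) at 12 h, ACLY and SREBF2 being within 1.5-fold by both sums. For these changes the cause was not tested. Without counts, depth sets no interval here, and values near 1 FPKM are the least precise.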
